A study of Rattus norvegicus with 16 samples.

Results

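Expression of 6 genes of cell proliferation and cell-cycle arrest was examined in rat kidneys, out of 32623 gene IDs measured by bulk RNA-Seq. The 6 were given as Ensembl IDs: ENSRNOG00000000521 (Cdkn1a), ENSRNOG00000000632 (Cdk1), ENSRNOG00000053047 (Top2a), ENSRNOG00000028137 (Mki67), ENSRNOG00000021264 (Pcna) and ENSRNOG00000020918. Names of 5 of them were established by matching expression values. ENSRNOG00000020918 could not be matched and is described by its ID alone, with no function given. All 6 passed the filter on low counts and were tested in every comparison.

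The 16 libraries were made from polyadenylated RNA of whole adult kidney of male Sprague-Dawley rats, 4 from each of 4 groups. The labels give an age of 6 weeks for each. The paper describes its bulk data as taken after 6 weeks of treatment, counted from the first DOCA injections. The label may therefore state time on treatment rather than age. Control rats had a sham operation, sesame oil injections and tap water. DOCA-treated rats had the left kidney removed, received weekly injections of deoxycorticosterone acetate (DOCA, a mineralocorticoid and precursor of aldosterone) and drank 1% sodium chloride, with a vehicle by gavage. Finerenone-treated and spironolactone-treated rats had the same operation, DOCA and salt, and received by gavage a drug that blocks the mineralocorticoid receptor, finerenone or spironolactone. Nephrectomy, DOCA and salt thus separate control rats from all 3 other groups together. Removal of a kidney is known to be followed by growth of the remaining kidney, and in these data its part in any difference from control cannot be told apart from that of DOCA and salt. Both drug comparisons with DOCA-treated rats are between animals with a single kidney.

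Most tubule cells of an adult kidney are not dividing, and they can re-enter the cell cycle after injury or loss of renal mass. A cell in cycle copies its DNA in S phase with the help of the Pcna clamp, untangles it with Top2a, enters mitosis through the kinase Cdk1 and carries the protein of Mki67, the usual tissue marker of proliferation. Cdkn1a encodes p21, an inhibitor of cyclin-dependent kinases that holds cells in arrest and is a classical target of p53.

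Libraries held between 7063146 and 8056935 counts, except for 10932887 in spironolactone replicate 4. DOCA replicate 4 and spironolactone replicate 4 were set aside by the study as outliers and did not enter the tests, and their values are given throughout. Every library carries a code whose first number occurs in 1 group only, so this number cannot be told apart from the group. The labels number the libraries without saying that each is a separate animal, and p-values measure the spread between libraries. In whole tissue, fewer cells of a type and less RNA per cell cannot be told apart.

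Levels are given as CPM (counts scaled to a common library total after TMM), which serve to compare the same gene between libraries, and as TPM, which corrects for transcript length and serves to compare genes. A gene was called when edgeR's quasi-likelihood test gave a Benjamini-Hochberg adjusted p under 0.05 over all 14628 genes tested and a log2 fold change of 0.5 or more in either direction. By TPM, Pcna was the most abundant of the 6 in the tested DOCA libraries, with 78.8 ± 0.926 (SD, n = 3), followed by ENSRNOG00000020918 with 62.8 ± 10.7 (SD, n = 3). Cdkn1a reached 34.8 ± 2.27 TPM and Cdk1 21.1 ± 2.33 TPM (SD, n = 3 each). Top2a and Mki67 were the least abundant, with 8.04 ± 1.88 and 4.35 ± 0.748 TPM (SD, n = 3 each). The mitotic genes were thinly covered in control rats, where Cdk1 had between 8 and 16 counts per library and Top2a between 19 and 36.

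Promoter sequences of Cdk1, Top2a and Mki67 are shown because these 3 genes moved together across the groups, and that of Cdkn1a because it was not called with them between finerenone and DOCA. Each is the 250 bases before the transcription start in RefSeq's GRCr8 annotation, a later build than the one used for alignment (rn6), and is written 5′ to 3′ on the gene's strand. RefSeq promoters were found for all 5 named genes. Capitals mark matches, on either strand, to the cell cycle genes homology region (CHR, searched as TTTGAA or TTCGAA), which is known to bind MuvB complexes, and to the CCAAT box, known to bind NF-Y. In Cdkn1a, capitals mark a p53 half-site, searched by its usual degenerate form. The Cdk1 sequence lies at chr20:19265043-19265292 (plus strand), Top2a at chr10:84473094-84473343 (minus strand), Mki67 at chr1:199952594-199952843 (minus strand) and Cdkn1a at chr20:7150682-7150931 (plus strand).
Cdk1: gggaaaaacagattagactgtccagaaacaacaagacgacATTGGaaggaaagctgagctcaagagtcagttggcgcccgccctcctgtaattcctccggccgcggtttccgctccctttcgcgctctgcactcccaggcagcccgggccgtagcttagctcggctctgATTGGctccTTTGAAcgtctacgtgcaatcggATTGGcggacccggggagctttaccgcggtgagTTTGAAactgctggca
Top2a: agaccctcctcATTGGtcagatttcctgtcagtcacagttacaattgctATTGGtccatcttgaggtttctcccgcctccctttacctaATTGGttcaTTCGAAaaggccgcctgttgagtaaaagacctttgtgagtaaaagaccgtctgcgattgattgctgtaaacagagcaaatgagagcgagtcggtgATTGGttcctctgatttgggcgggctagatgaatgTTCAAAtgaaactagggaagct
Mki67: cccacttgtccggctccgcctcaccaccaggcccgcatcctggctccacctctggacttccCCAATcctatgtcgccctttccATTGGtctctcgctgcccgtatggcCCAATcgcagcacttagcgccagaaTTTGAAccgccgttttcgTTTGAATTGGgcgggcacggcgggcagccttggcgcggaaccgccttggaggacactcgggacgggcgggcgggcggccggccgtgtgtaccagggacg
Cdkn1a: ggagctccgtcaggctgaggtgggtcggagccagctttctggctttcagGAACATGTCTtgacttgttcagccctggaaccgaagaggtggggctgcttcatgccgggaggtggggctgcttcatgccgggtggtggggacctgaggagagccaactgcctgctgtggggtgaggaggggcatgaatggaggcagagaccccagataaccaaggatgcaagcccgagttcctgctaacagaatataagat

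Cdk1, Top2a and Mki67 each had 2 CHR matches in this window, while Cdk1 had 3 CCAAT matches and Top2a and Mki67 had 4 each. In Mki67 the CHR match that ends at position -94 shares this base with a CCAAT match. Among 33469 rat promoter windows of the same length, 17.4% held a CHR match, 34.0% a CCAAT match and 1.74% a CHR match with at least 2 CCAAT matches. This last combination was chosen after the sequences were seen. The Cdk1 window also held an E2F match (TTTCGCGC or TTTGGCGC, found in 0.636% of windows). Cdkn1a held a p53 half-site match, found in 6.64% of windows, and none of the other motifs. Pcna held 1 CCAAT match and none of the others. These are matches of letters, not sites of binding.

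**Figure D1:**
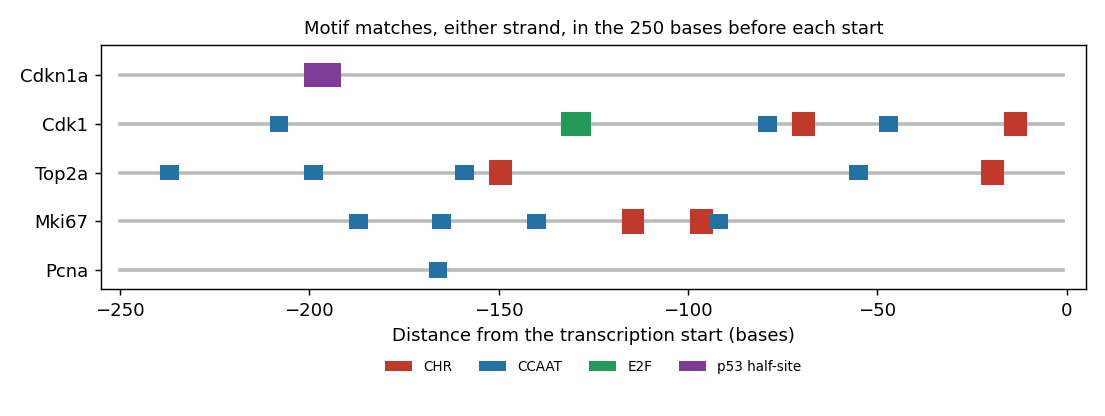
Motif matches before the start of the 5 named genes. The x axis gives the distance from the transcription start in bases, each row is a gene, and coloured boxes mark matches on either strand to CHR (red), CCAAT (blue), E2F (green) and the p53 half-site (purple). Cdk1, Top2a and Mki67 each carry 2 CHR matches, whereas Cdkn1a and Pcna carry none.

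The response to nephrectomy with DOCA and salt was examined first. Cdk1, Top2a and Mki67 were higher in DOCA-treated than in control rats by 8.46-fold, 7.91-fold and 5.60-fold, and Cdkn1a by 2.85-fold. Pcna passed the test but not the fold minimum, and ENSRNOG00000020918 was not called. Of the 6 genes, 4 were called higher, where 15.4% of all genes tested were. For 5 of the 6 all tested DOCA libraries were on the same side of all control libraries in CPM, as for 43.0% of all genes tested. Over the 6 genes the median log2 fold change was 2.00, compared with 0.02 over all genes tested.

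Cdk1, the kinase that starts mitosis, had 2.17, 1.25, 1.68 and 2.55 CPM in control replicates 1 to 4. It had 16.6, 18.2 and 13.9 CPM in DOCA replicates 1 to 3, and 10.8 in the library set aside. All 4 DOCA libraries were above all controls, the one set aside least so. On the log2 scale Cdk1 was higher by 3.08 ± 0.28 (SE; edgeR adjusted p of 4.22e-07). Top2a, the topoisomerase that separates copied DNA strands, had 2.94, 5.15, 3.77 and 5.74 CPM in the control libraries. In DOCA replicates 1 to 3 it had 40.3, 38.5 and 25.7 CPM, and 14.5 in replicate 4. The groups did not overlap, and DOCA libraries differed among themselves by more than controls did in CPM, at a higher mean. The log2 difference was 2.98 ± 0.25 (SE; edgeR adjusted p of 3.79e-07). Mki67 had 5.42, 6.55, 6.15 and 6.06 CPM in control rats, the tightest group of this gene. In DOCA replicates 1 to 4 it had 36.9, 37.95, 27.0 and 18.4 CPM. As for Cdk1 and Top2a, replicate 4 was the lowest and replicate 3 the next. Mki67 was higher by 2.49 ± 0.23 (SE) on the log2 scale, at an edgeR adjusted p of 8.82e-07.

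Cdkn1a, the arrest gene, had 11.31, 4.06, 4.75 and 20.6 CPM in control replicates 1 to 4. It had 28.6, 28.9, 28.9 and 47.8 CPM in DOCA replicates 1 to 4. The controls thus spread about as widely as they differed from DOCA, while the 3 tested DOCA libraries were nearly equal, and the library set aside was the highest of all 16. The log2 difference was 1.51 ± 0.42 (SE; edgeR adjusted p of 0.0137). The call was lost in a fit of both groups alone (edgeR adjusted p of 0.0662) and with libraries of the same first code number summed (0.121). Within the DOCA group, replicate 4 had the highest Cdkn1a and the lowest Cdk1, Top2a, Mki67 and Pcna.

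Pcna, the clamp of the DNA polymerases, which also serves DNA repair, changed less. It had 42.9, 39.3, 46.9 and 41.9 CPM in control rats and 57.6, 60.8, 56.9 and 47.6 CPM in DOCA replicates 1 to 4. The groups did not overlap, and DOCA replicate 4 was only just above the highest control. The log2 difference was 0.45 ± 0.11 (SE; edgeR adjusted p of 0.00330), below the fold minimum. It stayed below the minimum with RLE scaling and DESeq2 (both 0.45) and was above it with upper quartile scaling (0.54), library size alone (0.79) and limma on log2(TPM + 1) (0.94) and log2(TPM + 0.1) (0.96). On the last of these scales the median of all genes moved to 0.53, and relative to it Pcna was higher by 0.43, close to the 0.42 after TMM.

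ENSRNOG00000020918 had 271, 254, 354 and 138 CPM in control replicates 1 to 4 and 187, 153, 198 and 209 CPM in DOCA replicates 1 to 4. These groups overlapped through control replicate 4, which was also the control with the highest Cdkn1a. The log2 difference was -0.50 ± 0.23 (SE; edgeR adjusted p of 0.108). Without control replicate 4 the value was -0.71 with an edgeR adjusted p of 0.000539. With all 14 libraries DESeq2 called it (adjusted p of 0.0455), as did edgeR with the replicate number as a block (-0.59, adjusted p of 0.0465). With limma on log2(TPM + 1) the value was 0.08, which is 0.35 below the median of all genes on that scale.

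**Figure D2:**
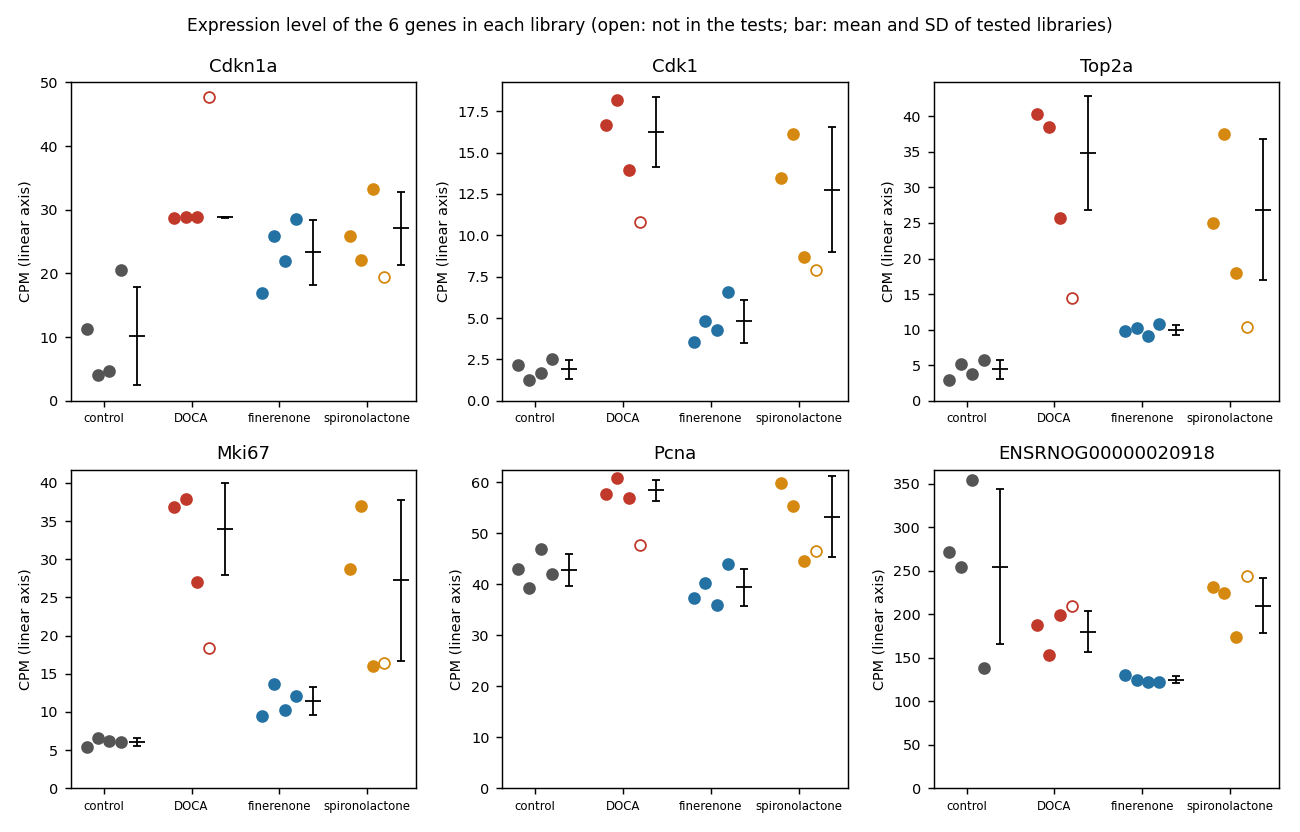
Expression of the 6 genes in each of the 16 libraries. The y axis gives CPM from 0, the x axis the 4 groups in order of replicate, open points are the 2 libraries not tested, and black bars give the mean and SD of the tested libraries. Finerenone libraries of Cdk1, Top2a and Mki67 lie between control and DOCA libraries, while those of Cdkn1a lie under all DOCA libraries and overlap the highest control.

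Finerenone was next compared with DOCA alone. The proliferation genes were lower in finerenone-treated rats, Cdk1 by 3.38-fold, Top2a by 3.50-fold, Mki67 by 2.98-fold and Pcna by 1.49-fold. Cdkn1a was not called. In all, 4 of the 6 genes were called lower, where 7.70% of all genes tested were, and for 6 of 6 the CPM of finerenone and DOCA libraries were separate, as for 32.4% of all genes tested. Both DOCA comparisons use the same DOCA libraries, so a rise against control and a fall with finerenone are not independent of each other.

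Cdk1 had 3.55, 4.84, 4.27 and 6.57 CPM in finerenone replicates 1 to 4, which put it at -1.76 ± 0.25 (SE) against DOCA on the log2 scale (edgeR adjusted p of 9.74e-05). Top2a had 9.79, 10.2, 9.04 and 10.8 CPM, a log2 difference of -1.81 ± 0.23 (SE; edgeR adjusted p of 5.11e-05). Mki67 had 9.51, 13.7, 10.29 and 12.1 CPM, a log2 difference of -1.58 ± 0.22 (SE; edgeR adjusted p of 9.74e-05). For each of these genes every finerenone library was below every DOCA library, also the one set aside. The finerenone libraries were closer together in CPM than the DOCA libraries, but at lower means. Spread relative to the mean was not compared. With all 16 libraries the log2 fold changes were -1.63, -1.58 and -1.40, and each was called.

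Pcna had 37.3, 40.1, 35.9 and 44.0 CPM in finerenone replicates 1 to 4, with a log2 difference of -0.57 ± 0.11 (SE; edgeR adjusted p of 0.00124). Finerenone replicates 1 and 3 were below the range of the control libraries and replicates 2 and 4 within it. Cdkn1a had 16.9, 25.9, 22.0 and 28.5 CPM. All 4 were below the DOCA libraries, the last of them by little. The log2 difference was -0.31 ± 0.39 (SE; edgeR adjusted p of 0.632), with a 95% interval from -1.17 to 0.55. This interval does not reach the estimates for Cdk1, Top2a and Mki67, but the difference between genes was not tested. ENSRNOG00000020918 had 130, 124, 122 and 121 CPM, the narrowest group of this ID. The log2 difference was -0.53 ± 0.23 (SE; edgeR adjusted p of 0.120), and it became a call with all 16 libraries (-0.59, adjusted p of 0.0393), in a fit of both groups alone (0.00210), with library size alone (0.0252), in both limma fits (0.0104 and 0.0113) and without control replicate 4, a library of neither group (0.00581).

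Spironolactone was compared with DOCA in the same way. None of the 6 genes was called, by edgeR, DESeq2 or limma, and 0 of them had an unadjusted p under 0.05. Of all genes tested 0% were called by edgeR, with 578 at an unadjusted p under 0.05, while DESeq2 called 11 genes and limma on log2(TPM + 1) called 1. The log2 difference of Cdk1 was -0.35, with a 95% interval from -0.87 to 0.18. For Top2a it was -0.37 (from -0.86 to 0.12), for Mki67 -0.31 (from -0.79 to 0.16) and for Pcna -0.13 (from -0.37 to 0.11). Cdkn1a had the widest interval, from -1.002 to 0.82 around -0.09, and turned to 0.04 without spironolactone replicate 2. ENSRNOG00000020918 differed by 0.22 (from -0.31 to 0.75). For Cdk1 the interval reaches a change of -0.87, so equal levels are not shown.

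Spironolactone libraries varied widely among themselves. Cdk1 had 13.5, 16.1 and 8.66 CPM in replicates 1 to 3, and 7.87 in replicate 4, the library set aside. Top2a had 25.1, 37.5, 18.0 and 10.31 CPM in replicates 1 to 4, the last of them within the range of finerenone libraries. Mki67 had 28.8, 37.0, 16.01 and 16.4 CPM in replicates 1 to 4. In these 3 genes replicate 2 was the highest and replicates 3 and 4, which share a first code number, were the lowest. Pcna had 59.9, 55.4, 44.5 and 46.6 CPM, again with replicates 3 and 4 lowest. Cdkn1a had 25.9, 22.1, 33.2 and 19.4 CPM, so that replicate 3 was the highest in Cdkn1a while it was low in the proliferation genes. ENSRNOG00000020918 had 231, 225, 174 and 243 CPM.

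The drugs were then compared directly, in rats that otherwise had the same operation, DOCA and salt. Cdk1, Top2a and Mki67 were lower with finerenone than with spironolactone by 2.66-fold, 2.704-fold and 2.40-fold. Of the 6 genes 4 were called lower, where 6.84% of all genes tested were. The log2 fold change of Cdk1 was -1.41 ± 0.25 (SE, edgeR adjusted p of 0.000963). That of Top2a was -1.44 ± 0.23 (SE, edgeR adjusted p of 0.000576) and that of Mki67 -1.26 ± 0.22 (SE, edgeR adjusted p of 0.000940). The fourth call was ENSRNOG00000020918, at -0.75 ± 0.23 (SE, edgeR adjusted p of 0.0370). It was lost when any 1 of the 4 finerenone libraries, or spironolactone replicate 1 or 2, was left out, with adjusted p of up to 0.125. The call was also lost with no filter (0.0638), with the replicate number as a block (0.0746) and with summed libraries (0.292). Summing also ended the call of Mki67 (0.0576). Pcna differed by -0.44 ± 0.11 (SE, edgeR adjusted p of 0.00969), under the fold minimum, and by -0.55 without spironolactone replicate 3, which made it a call. Cdkn1a differed by -0.22 ± 0.39 (SE, edgeR adjusted p of 0.755).

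Against control rats, 4 of the 6 genes were called in each drug group. With spironolactone all 4 were higher, where 14.7% of all genes tested were called higher. Cdk1 was 6.65-fold, Top2a 6.12-fold, Mki67 4.503-fold and Cdkn1a 2.68-fold above control. The call of Cdkn1a was lost without spironolactone replicate 3 (edgeR adjusted p of 0.0676), in a fit of both groups alone (0.0979) and with libraries of the same first code number summed (0.137). Pcna was higher by 0.32 ± 0.11 (SE) on the log2 scale, with an edgeR adjusted p of 0.0310, below the fold minimum. ENSRNOG00000020918 had a log2 fold change of -0.28 ± 0.23 (SE, edgeR adjusted p of 0.380).

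With finerenone, 3 genes were called higher and 1 lower than control, where 4.18% of all genes tested were called either way. Cdk1 remained 2.50-fold above control, with a log2 fold change of 1.32 ± 0.29 (SE, edgeR adjusted p of 0.0109). Top2a was 2.26-fold higher (edgeR adjusted p of 0.0128) and Mki67 1.88-fold higher (edgeR adjusted p of 0.0305). All 4 finerenone libraries were above all controls in these 3 genes. The calls of Top2a and Mki67 were close to the threshold and were lost with all 16 libraries, at adjusted p of 0.134 and 0.104, and with limma on log2(TPM + 1), at 0.0507 and 0.164. No gene was called with libraries of the same first code number summed, where Cdk1 had an adjusted p of 0.103. Top2a also lost its call without control replicate 1 (0.0503) or 3 (0.0506). Mki67 lost its call without control replicate 1, 2 or 3 or finerenone replicate 2 or 4, with adjusted p of up to 0.0993. Pcna was at -0.12 ± 0.10 (SE, edgeR adjusted p of 0.551). ENSRNOG00000020918 was 2.05-fold lower, with an edgeR adjusted p of 0.0152, and just missed the threshold without finerenone replicate 2 (0.0513) or 4 (0.05001), with limma on log2(TPM + 1) (0.0505) and in a fit of both groups alone (0.0634). Cdkn1a was 2.31-fold above control but not called, with a log2 difference of 1.21 ± 0.40 (SE; edgeR adjusted p of 0.108). Without control replicate 4 this became 1.80 with an edgeR adjusted p of 0.00217, and limma called it on both TPM scales (0.0186 and 0.0169). A fit by edgeR with the replicate number as a block also called Cdkn1a (1.34, adjusted p of 0.0443).

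**Figure D3:**
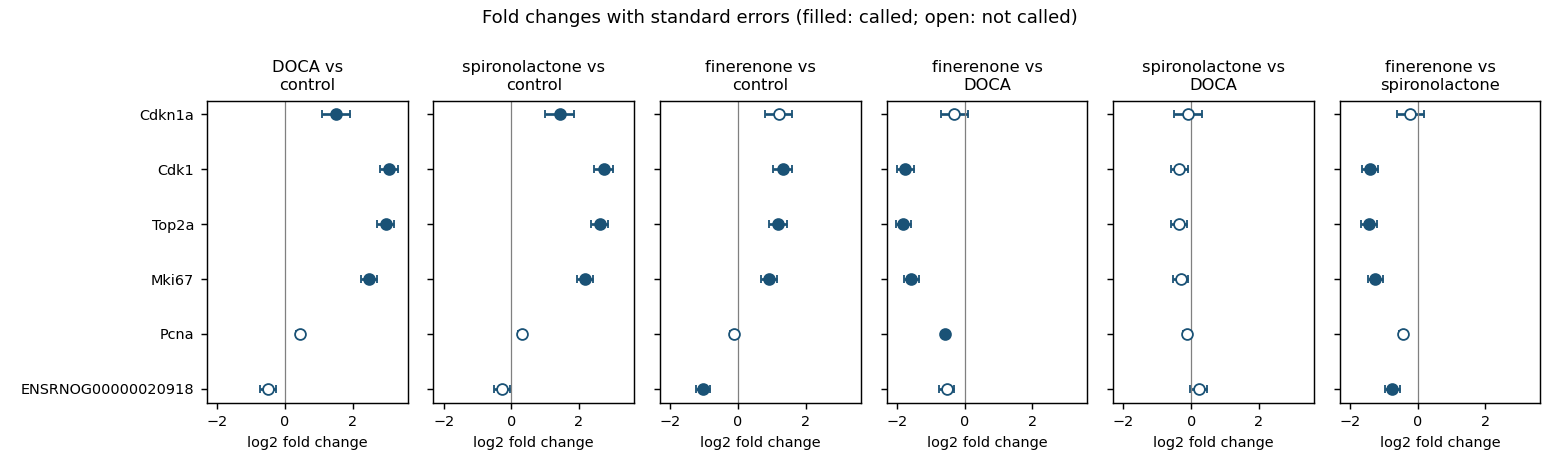
Log2 fold changes of the 6 genes in the 6 comparisons. The x axis gives the log2 fold change, bars are standard errors, filled points were called and open points were not. Cdk1, Top2a and Mki67 lie near 3.08, 2.98 and 2.49 in DOCA and are called lower with finerenone, while no gene is called between spironolactone and DOCA.

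By mean CPM of the tested libraries, Cdk1, Top2a and Mki67 had the same order of groups, control, finerenone, spironolactone and DOCA, and of the neighbours only spironolactone and DOCA were not called apart. For Cdkn1a the order was the same, with 10.2 ± 7.66 (SD, n = 4) in control, 23.3 ± 5.06 (SD, n = 4) in finerenone, 27.1 ± 5.67 (SD, n = 3) in spironolactone and 28.8 ± 0.135 (SD, n = 3) in DOCA rats, and no pair of neighbours was called apart. For Pcna finerenone stood lowest, at 39.3 ± 3.58 (SD, n = 4), next to control at 42.8 ± 3.17 (SD, n = 4), and no pair of neighbours was called apart. The means of ENSRNOG00000020918 went from 124 ± 4.01 (SD, n = 4) in finerenone over 180 ± 23.6 and 210 ± 31.4 (SD, n = 3 each) in DOCA and spironolactone to 255 ± 89.0 (SD, n = 4) in control rats, with no neighbours called apart.

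The balance of the arrest gene and the proliferation genes within a library does not depend on scaling between libraries. The ratio of Cdkn1a to Mki67 in TPM was 7.54, 7.49 and 9.38 in DOCA replicates 1 to 3, and 22.3 in replicate 4. In finerenone replicates 1 to 4 it was 18.0, 16.1, 18.0 and 21.8. It was therefore above the 3 tested DOCA libraries in all finerenone libraries, but not above the DOCA library set aside. Spironolactone replicates 1 to 4 had ratios of 8.45, 5.98, 18.8 and 11.2. Control libraries ranged from 6.04 in replicate 2 to 28.8 in replicate 4. The ratio of Mki67 to Pcna was steadier. It was between 0.0121 and 0.0155 in control, between 0.0242 and 0.0319 in finerenone and between 0.0334 and 0.0634 in spironolactone libraries. In DOCA libraries it was between 0.0368 and 0.0621, so that control, finerenone and the other 2 groups did not overlap over all 16 libraries. These ratios were chosen after the values were seen and are given without a test.

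**Figure D4:**
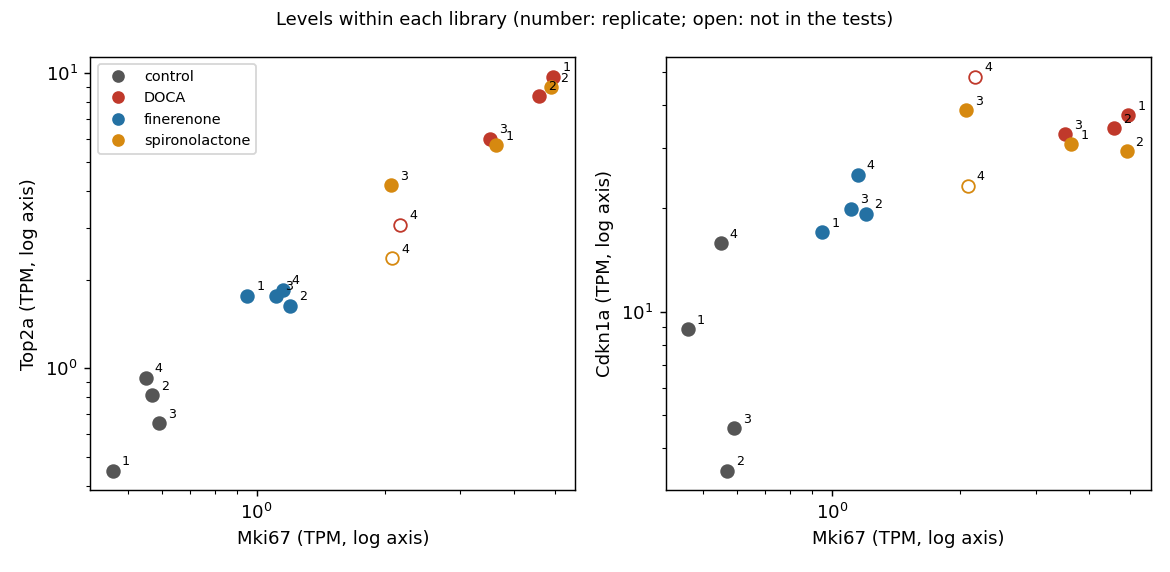
Top2a (left) and Cdkn1a (right) against Mki67 in each of the 16 libraries. All axes give TPM on log scales, colours mark the groups, numbers the replicates, and open points the 2 libraries not tested. Top2a and Mki67 run along a line through all groups, whereas DOCA replicate 4 and spironolactone replicate 3 have the highest Cdkn1a at intermediate Mki67.

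Over the 14 tested libraries, log2 CPM of Top2a and Mki67 correlated with a Pearson r of 0.98, and Mki67 ranked 3 among the 14627 genes compared with Top2a, and Top2a ranked 2 for Mki67. Cdk1 correlated with Mki67 at 0.97 and with Top2a at 0.96, Pcna with Mki67 at 0.81, and Cdkn1a with Cdk1 at 0.80 and with Mki67 at 0.66. These values contain the differences between groups. On deviations from the group means Top2a and Mki67 still had an r of 0.79, rank 35 of 14627 among the genes most like Mki67, and 0.88 over all 16 libraries. Cdk1 was less close to these 2 genes, with an r of 0.61 with Mki67 and 0.46 with Top2a. These ranked 549 and 1552 of 14627 among the genes most like Cdk1. Over all 16 libraries the values were 0.74 and 0.67. Cdk1 and Pcna had an r of 0.69 and Mki67 and Pcna 0.66. Cdkn1a had an r of 0.55 with Cdk1, -0.03 with Top2a and -0.18 with Mki67. ENSRNOG00000020918 was opposed to Cdkn1a, with an r of -0.76, and -0.67 over all 16 libraries. All are descriptions over points that share libraries and scaling factors.

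Genes most like each member on deviations from the group means were sought among the genes with an established name. Most of these had been selected by the study for a difference between DOCA and control, so genes without a name may stand closer. For Top2a these were Tuba1b (r of 0.86), Hmgb2 (0.84) and C3 (0.83), and for Mki67 Mab21l3 (0.89), Hmgb2 and Pabpc1 (both 0.85). Hmgb2, a chromatin protein abundant in dividing cells, was thus on both lists. Cdk1 was nearest to Tubb5 (0.92), Prr13 (0.90) and Spp1 (0.90), the last of which encodes osteopontin. Tubulin genes have close copies, between which reads may be split. Cdkn1a was nearest to Serpinh1 (0.92), a chaperone of collagen, and to Map1a and Olr1 (both 0.88). Iqcd (0.85) and Cpne8 (0.83) were among the genes nearest to Pcna, and ENSRNOG00000020918 was nearest to Wls (0.89), Pros1 (0.86) and Fermt1 (0.84). Among all 14627 genes compared, Wls, Pros1 and Fermt1 ranked only 12, 33 and 46 for this ID. Serpinh1, Map1a and Olr1 ranked 4, 14 and 15 for Cdkn1a.

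Other genes of the cell cycle were counted from lists, leaving out the 6 genes. They could be named only where they were among 2000 symbols that the study lists, most of which it had selected for a difference between DOCA and control. Their counts in that comparison therefore follow from the selection and support nothing. The same holds in part for every other comparison with DOCA or with control, which use the same libraries. Of 43 genes of DNA replication 14 could be tested, and 11 were called higher in DOCA than in control (15.4% of all genes tested were). With finerenone 9 of these 14 were called lower than in DOCA, where 7.70% of all genes tested were, with a median log2 fold change of -0.88 beside -0.03 over all genes. With spironolactone 0 of 14 were called, with a median of -0.17 beside 0.01. Mcm5 and Mcm6, subunits of the replicative helicase, fell most with finerenone, with log2 fold changes of -1.83 ± 0.26 and -1.62 ± 0.17 (SE, edgeR adjusted p of 0.000101 and 9.12e-06). Fen1, a nuclease that processes Okazaki fragments, was at -0.18 and was not called.

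Of 55 genes of G2 and mitosis 15 could be tested, and 13 were called higher in DOCA than in control (beside 15.4% of all genes). With finerenone all 15 were below DOCA and 12 were called (beside 7.70% of all genes called lower), at a median log2 fold change of -0.96 compared with -0.03 over all genes. With spironolactone 0 were called, at a median of -0.20 compared with 0.01. Ccnb1, the cyclin partner of Cdk1, and Cks2, a small subunit of the same kinase, had log2 fold changes of -1.56 ± 0.28 and -1.43 ± 0.30 (SE, edgeR adjusted p of 0.000820 and 0.00295). Smc4, a subunit of condensin, was lower by 0.56 on the log2 scale and Ckap5, a microtubule protein, was at -0.41, under the fold minimum. Against control, finerenone was called either way for 1 of the 15 genes, which was higher (4.18% of all genes tested were called either way). Spironolactone was called higher than control for 13 of 15 (14.7% of all genes tested were called higher). Both counts use the control libraries of the selection and are not independent of it.

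Among CDK inhibitors and p53 targets, 10 of 30 genes could be tested, and 9 were called higher in DOCA than in control (beside 15.4% of all genes). The remaining 1 was called lower. Of all 14628 genes tested, 3902 were called either way in this comparison. With finerenone 3 of the 10 were called lower than in DOCA, beside 7.70% of all genes, at a median log2 fold change of -0.43, and with spironolactone 0 were called, at a median of -0.01. Fas, the death receptor, was at -0.86 with an edgeR adjusted p of 0.0593. Cdkn2c, an inhibitor of Cdk4 and Cdk6, was at -0.03, and Sesn1, a stress-induced p53 target, at 0.40, neither of them called. Of 15 genes of the G1/S switch 7 could be tested, all called higher in DOCA than in control (beside 15.4% of all genes), and 3 of 7 were called lower with finerenone than in DOCA (beside 7.70%). Rbl1, an RB family protein, was at -1.43 ± 0.28 and Myc at -0.88 ± 0.22 (SE, edgeR adjusted p of 0.00161 and 0.00910), while Cdk2 and E2f2 were at -0.07 and -0.41 and were not called. Myc was still above control with finerenone, by 1.16 ± 0.23 (SE) on the log2 scale (edgeR adjusted p of 0.00671).

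**Figure D5:**
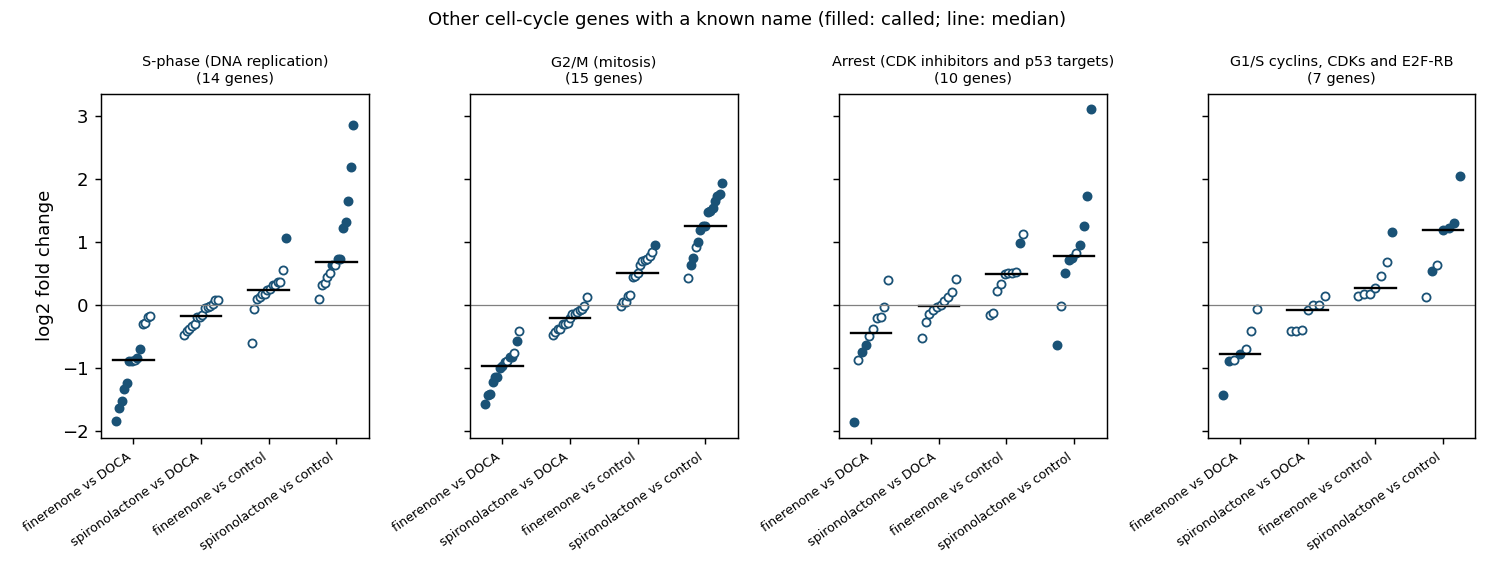
Log2 fold changes of the other cell-cycle genes that could be named, in 4 lists of 14, 15, 10 and 7 genes. The y axis gives the log2 fold change, each point is a gene, filled points were called, and lines are medians. With spironolactone compared with DOCA no gene of any list is called, and with finerenone compared with DOCA 12 of the 15 mitosis genes are.

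Markers of cells that could carry these transcripts moved with the groups too. Of the injured tubule markers (such as Havcr1 and Lcn2) 11 of 13 could be named, and their summed TPM was between 415 and 705 in control, 9287 and 23296 in DOCA, 1876 and 3679 in finerenone and 7394 and 17211 in spironolactone libraries. Most of this sum in the 3 groups with DOCA was Spp1. Without it the other 10 markers summed to between 288 and 403 TPM in control, 1767 and 4269 in DOCA, 622 and 819 in finerenone and 1593 and 2994 in spironolactone libraries. Leukocyte markers (12 of 21 named) summed to between 333 and 538 TPM in control, 1097 and 1731 in DOCA, 674 and 735 in finerenone and 1217 and 1286 in spironolactone libraries. Fibroblast markers (8 of 10 named) summed to between 81.6 and 131 TPM in control, 507 and 930 in DOCA, 229 and 269 in finerenone and 459 and 654 in spironolactone libraries. Of the kidney epithelium markers 4 of 14 could be named, and all 4 were present in every library. Of these, Hsd11b2, Scnn1a and Scnn1b, genes of the distal nephron and collecting duct, summed to between 209.6 and 278 TPM in control, 339.7 and 528 in DOCA, 236 and 339 in finerenone and 283 and 445 in spironolactone libraries. These 3 include no marker of the proximal tubule, so their sum does not describe the epithelium as a whole. All sums are on the TPM scale, on which the median of all genes was 0.53 higher (log2, pseudocount 0.1) in DOCA than in control. The sums over part of a list were chosen after the values were seen. No named marker of any list was at 0 in any library. All these lists were named through the same selection, and the part of each cell type in the levels of the 6 genes was not tested.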

How the data were processed

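Kidney RNA of 16 rats' libraries was measured by bulk RNA-Seq. Per the study's methods, reads went through FASTQC and Trim Galore 0.4.5, alignment by STAR 2.7.3a to the rat build rn6 and gene quantification by RSEM, all by the authors. The annotation is not given in the sources used here. The expected counts deposited by the authors were not normalized, 3.14% of them were not whole, and they were rounded here. The TPM values deposited by the authors were scaled for transcript length and to a common total. Reads shared by near-identical genes may be split between them.

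The 14628 genes (of 32623) with counts over 4 in 3 or more of the 14 tested libraries were fitted with edgeR 4.0.16 in R 4.3.3 (quasi-likelihood F test, robust, TMM) in 1 model of 4 groups. Standard errors are fold changes divided by the root of F, and intervals from the test's degrees of freedom. Alternatives used RLE, upper quartile or no scaling, other filters, DESeq2 1.42.0, limma 3.58.1 on log2 TPM with a pseudocount of 1 or 0.1, all 16 libraries, fits of 2 groups, libraries summed by first code number, a replicate block, the adjusted p alone, and leaving out each library. The tests were checked on simulated counts. The common biological coefficient of variation was 0.165. A floor of 3 counts was between 0.243 and 0.478 CPM per library and covers counting error only. Within groups, the 24 pairs of libraries had a mean chi-square per gene of 4.54 to 40.4, over sampling noise, so none was taken for a repeat deposit of another.

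The files give Ensembl IDs without names, and the RefSeq gene table filled 0 Ensembl cells. An ID was named where it alone had the TPM of 1 symbol, at 2 decimals, in the study's supplementary values, which served for identity only and whose list is shortened. Values were compared sorted within each group, since the study numbers control libraries differently from the labels. Of 2000 symbols 1999 were paired, 5 of the 6 genes among them. The libraries set aside were taken to be those for which these values give none. The 6 IDs were reported in every library and comparison whether or not called. From each list of cell-cycle genes, those named are the 2 highest and the 2 lowest in finerenone vs DOCA. Some genes that these rules name are not reported here. Likeness was ranked by Pearson r of log2 CPM (prior count 2), with the 3 nearest named genes given. The members and lists were chosen with earlier results of these data known.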

Additional observations from a re-analysis of the deposited data

Results flagged for a closer look

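Cdkn1a in DOCA replicate 4 stood apart from the other DOCA libraries, at 47.8 CPM compared with 28.6, 28.9 and 28.9 CPM. Its gap to the nearest library was a share of 0.988 of the range of the group, above Dixon's 95% critical value for 4 libraries. Of 24 sets of 4 libraries tested in this way (6 genes in 4 groups) 1 was marked, where chance gives about 1 in 20 sets. This library was one of those set aside by the study and did not enter the tests. With all 16 libraries the log2 fold change of Cdkn1a was 1.73 between DOCA and control and -0.52 between finerenone and DOCA, with edgeR adjusted p of 0.00265 and 0.327.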

How the results depend on the processing

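Between DOCA and control and between finerenone and DOCA, Cdk1, Top2a and Mki67 kept their calls under all 13 alternatives and without each of the 14 libraries in turn. The number of the 6 genes called was between 4 and 5 in both comparisons when a library was left out, between 3 and 4 for spironolactone vs control, between 3 and 5 for finerenone vs spironolactone and 0 in all fits for spironolactone vs DOCA. The fits without a library tested 14539 to 14599 genes. Of all these, 3408 to 3924 were called in DOCA vs control and 1508 to 2161 in finerenone vs DOCA. Calls numbered 2893 to 3641 in spironolactone vs control, 1053 to 1825 in finerenone vs spironolactone and at most 2 in spironolactone vs DOCA. Finerenone vs control was the least stable, with 2 to 5 of the 6 genes called when a library was left out (4 with all), 2 with limma on log2(TPM + 1), 2 with all 16 libraries and 0 with libraries summed by first code number. Over all genes tested, calls there numbered 349 to 847 with a library left out and 622 of 14628 with limma. They numbered 407 of 14791 with all 16 libraries and 173 of 14850 with summed libraries. That summing left fewer libraries and gave 2 calls among the 6 genes for finerenone vs spironolactone, where 684 of 14850 genes were called. ENSRNOG00000020918 changed sign in DOCA vs control with limma on log2(TPM + 1) (0.0765) and log2(TPM + 0.1) (0.0788), and in spironolactone vs control with library size alone (0.0313) and the same limma fits (0.30 and 0.31), where the median of all genes had moved to between 0.33 and 0.53. Cdkn1a changed sign in spironolactone vs DOCA without spironolactone replicate 2 (0.0383, with values down to -0.265 without replicate 3), and the cause was not tested. Of the results of single genes under alternatives, 905 kept direction and call, 34 lost and 27 gained a call.

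Little sign was seen that replicate numbers pair the libraries, but pairs with different numbers were not compared, so pairing is not excluded. Over 19 pairs with the same number, deviations from the group means correlated between -0.0747 and 0.142, with 4 pairs over 0.1. With the replicate number as a block, 5 genes were called in DOCA vs control, 4 in finerenone vs DOCA, 0 in spironolactone vs DOCA, 5 in finerenone vs control, 4 in spironolactone vs control and 3 in finerenone vs spironolactone.
Depth limits Cdk1 and Top2a most, with as few as 8 and 19 counts in a control library.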
